A study of Rattus norvegicus with 24 samples.

Results

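The genes described here encode the voltage-gated calcium channels (symbols starting with Cacna or Cacnb), the potassium channels (symbols starting with Kcn) and the voltage-gated sodium channels (Scn followed by a number and a or b) in INS-1 cells, an insulin-secreting line derived from a rat insulinoma. A gene was included when its mean reached at least 10 normalised read counts over the 8 libraries of the deposited table of Control and GLP-1 at 1 h or at 6 h. Of the 26404 genes in the tables, 122 carried such a symbol, and 81 passed. They were 16 of 17 calcium, 58 of 91 potassium and 7 of 14 sodium channel genes. The limit was met at both times by 76, while Cacna1e, Cacna1s, Kcnh5 and Kcnh7 passed at 1 h alone and Kcna7 at 6 h alone. The lowest gene inside the limit was Kcna7 (mean 10.3 at 6 h), and the highest gene outside it was Kcns2 (mean 5.72 at 6 h). Of the 41 genes outside, 11 had no read in any library, and Scn9a, which encodes a sodium channel pore, had 4 reads in all 24.

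The study treated INS-1 cells with GLP-1 at 100 nM (a hormone of the gut, glucagon-like peptide 1, which raises cAMP through its receptor on beta cells), with BMS-21, a compound known here by its code name, at 1 µM, or with DMSO as Control. Before that, all cells spent 90 min in 3 mM glucose, and the treatment was given in 11 mM glucose, so that the Control groups also went through the rise in glucose. Each of the 6 groups (Control, GLP-1 and BMS-21, at 1 h and at 6 h) has 4 libraries. INS-1 is a single tumour line, and the labels do not say that the 4 libraries of a group came from separate cultures, so p-values measure the spread between these libraries, which may be technical.

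In a beta cell, glucose metabolism closes the ATP-sensitive potassium channel, whose pore is made by Kcnj11 and whose sulfonylurea receptor is made by Abcc8. The membrane then depolarises, L-type and other voltage-gated calcium channels open, and the calcium that enters triggers insulin exocytosis. Voltage-gated and calcium-activated potassium channels end each action potential, two-pore channels carry a background potassium current, sodium channels add to the upstroke, and auxiliary subunits set the number and gating of the pores at the surface.

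The libraries held 10667350 to 13148970 reads each, and 3 reads, taken as the floor of detection for counting error only, equal 0.228 to 0.281 RPM (reads per 1000000 reads). All 8 beta-cell markers were detected, with Ins1 at 8618 to 11711 RPM. The other islet markers reached at most 14.1 RPM for Gcg, 2.39 RPM for Ghrl, 0.0864 RPM for Ppy and 0.0793 RPM for Sst. The summed acinar markers reached at most 0.487 RPM, the duct markers 5.54 RPM and the stromal and endothelial markers 1.78 RPM, with Amy2a3 and Spp1 at 0 throughout. The summed beta-cell markers at 6 h stood at 15252 to 16067 RPM in Control, 16279 to 17420 RPM with GLP-1 and 16613 to 19353 RPM with BMS-21. At 1 h these sums were 15506 to 16626, 16084 to 16670 and 16730 to 17503 RPM in the same order, and the summed duct markers were 1.19 to 2.76, 2.53 to 5.54 and 2.95 to 3.89 RPM. The duct sum was nearly all Sox9 (1.14 to 5.54 RPM over all libraries), as Krt19 reached at most 0.0828 RPM and Spp1 was 0. The summed markers of other islet cells at 6 h were 9.38 to 11.4, 11.4 to 11.9 and 10.9 to 15.7 RPM. The part of these shifts in the channel results was not tested. In bulk RNA, fewer cells of a type and less RNA per cell cannot be told apart. The kit does not mark strand, so reads of an overlapping gene on the other strand count toward a channel gene.

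Promoter sequences show the regulatory stretch next to the start site for genes that moved in opposite directions. cAMP signalling reaches many genes through CREB, which binds the cAMP response element, so the full element TGACGTCA and its half-site TGACG (with CGTCA on the other strand, and with each full element also holding half-sites) were searched on both strands. RefSeq (build GRCr8) gave a window of 300 bases, 250 before and 50 after the start, for 49 of the 81 genes, and 55 windows in all because 5 genes had more than 1. The half-site was present in 9 of the 55 windows (16.4%), against 7097 of all 33469 windows (21.2%). The full element was present in 0 of the 55, against 612 of all windows (1.83%). By response to GLP-1 at 6 h, the half-site was present in 1 of 11 windows of genes that rose, 3 of 14 of genes that fell and 5 of 26 of genes not past the threshold. The first 3 windows below belong to genes with a half-site and the last 3 to genes without one. They are examples, and none is of a gene that fell without a half-site, though only 3 of the 14 windows of genes that fell held one. Each window shown covers 270 bases, from 250 before the start to 20 after it, 5′ to 3′ on the gene's strand, and capitals mark the half-site. Distances are those of the first base of the half-site, and the half-site of Kcnip3 runs across the start. Cacna1c and Kcnab3 fell with both agents at 6 h, and Kcnip3, Kcnh1, Kcnma1 and Scn3a rose.
Cacna1c, chr4:154051729-154051998 (- strand), half-site 146 bases before the start: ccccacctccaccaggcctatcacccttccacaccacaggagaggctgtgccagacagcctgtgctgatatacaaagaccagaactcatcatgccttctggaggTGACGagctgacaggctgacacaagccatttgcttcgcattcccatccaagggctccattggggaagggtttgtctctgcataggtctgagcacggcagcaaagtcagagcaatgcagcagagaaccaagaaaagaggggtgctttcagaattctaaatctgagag
Kcnab3, chr10:54546388-54546657 (+ strand), half-site 232 bases before the start: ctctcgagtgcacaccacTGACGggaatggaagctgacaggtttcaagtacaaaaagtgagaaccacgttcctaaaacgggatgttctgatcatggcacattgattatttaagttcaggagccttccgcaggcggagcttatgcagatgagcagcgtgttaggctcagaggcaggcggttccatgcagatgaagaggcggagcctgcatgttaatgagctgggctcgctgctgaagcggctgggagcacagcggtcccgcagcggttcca
Kcnip3, chr3:135195391-135195660 (- strand), half-site 3 bases before the start: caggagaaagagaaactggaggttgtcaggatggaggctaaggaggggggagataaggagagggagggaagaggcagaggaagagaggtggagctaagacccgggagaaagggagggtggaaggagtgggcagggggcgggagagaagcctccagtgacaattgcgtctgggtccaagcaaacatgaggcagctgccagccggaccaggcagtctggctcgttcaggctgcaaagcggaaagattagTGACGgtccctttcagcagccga
Kcnh1, chr13:106252966-106253235 (+ strand): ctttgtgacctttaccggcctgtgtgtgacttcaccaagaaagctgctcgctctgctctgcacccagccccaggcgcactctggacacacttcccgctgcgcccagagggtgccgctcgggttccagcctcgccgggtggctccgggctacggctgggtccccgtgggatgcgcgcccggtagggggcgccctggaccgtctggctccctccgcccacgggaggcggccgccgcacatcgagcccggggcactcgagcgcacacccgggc
Kcnma1, chr15:351675-351944 (+ strand): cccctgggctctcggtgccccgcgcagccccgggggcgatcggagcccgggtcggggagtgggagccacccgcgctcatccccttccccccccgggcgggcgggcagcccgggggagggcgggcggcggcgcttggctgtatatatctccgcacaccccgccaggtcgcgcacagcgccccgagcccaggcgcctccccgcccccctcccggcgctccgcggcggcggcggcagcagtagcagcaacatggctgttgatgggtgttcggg
Scn3a, chr3:70666179-70666448 (- strand): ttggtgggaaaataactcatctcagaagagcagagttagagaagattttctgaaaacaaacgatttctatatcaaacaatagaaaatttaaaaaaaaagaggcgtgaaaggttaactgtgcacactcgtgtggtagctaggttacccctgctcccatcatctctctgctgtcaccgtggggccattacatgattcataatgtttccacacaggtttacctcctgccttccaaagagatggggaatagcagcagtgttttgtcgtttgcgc

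Fewer channel genes were called at 1 h than at 6 h, with or without a block on the replicate number. With GLP-1 at 6 h, 36 of the 77 channel genes tested passed the threshold (limma, Benjamini-Hochberg adjusted p under 0.05 over all genes), 17 higher and 19 lower. That is 46.8% of the channel genes, beside 31.7% of all genes tested. With BMS-21 at 6 h, 39 of 77 passed, 15 higher and 24 lower, which is 50.6%, beside 33.6% of all genes. At 1 h, 2 of 80 passed with GLP-1 (2.5%, beside 6.58% of all genes), both higher, and 2 of 79 passed with BMS-21 (2.53%, beside 5.91%), 1 higher and 1 lower. Of all genes at 1 h, 4.17% were higher and 2.41% lower with GLP-1, and 3.54% higher and 2.37% lower with BMS-21, and at 6 h 16.2% were higher and 15.6% lower with GLP-1 and 16.8% each with BMS-21. The median log2 change of the channel genes at 6 h was -0.10 with GLP-1 and -0.15 with BMS-21, while that of all genes was -0.00065 and -0.0015. Both agents were compared with the same 4 Control libraries at each time, so their values are given side by side and are not independent of each other. In 33 of the 36 genes called with GLP-1 and 35 of the 39 called with BMS-21, no library of the agent overlapped the Control libraries. That is 91.7% and 89.7%, beside 83.8% and 84.5% of all genes called in the same comparisons. The called changes were modest, with a median size of 0.54 (log2) with GLP-1 and 0.50 with BMS-21. These fits did not pair the libraries by replicate number. Blocking on that number, 5 of 80 passed with GLP-1 and 9 of 79 with BMS-21 at 1 h. At 6 h, 40 and 42 of 77 passed with the block. No share of all genes with the block is given beside these counts. Within replicates 1 and 2 alone, 35 genes passed with GLP-1 and 36 with BMS-21 at 6 h, and within replicates 3 and 4 alone 32 and 33. The shares of all genes passing within those replicates are not given, so these counts cannot be set against the shares above.

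**Figure D1:**
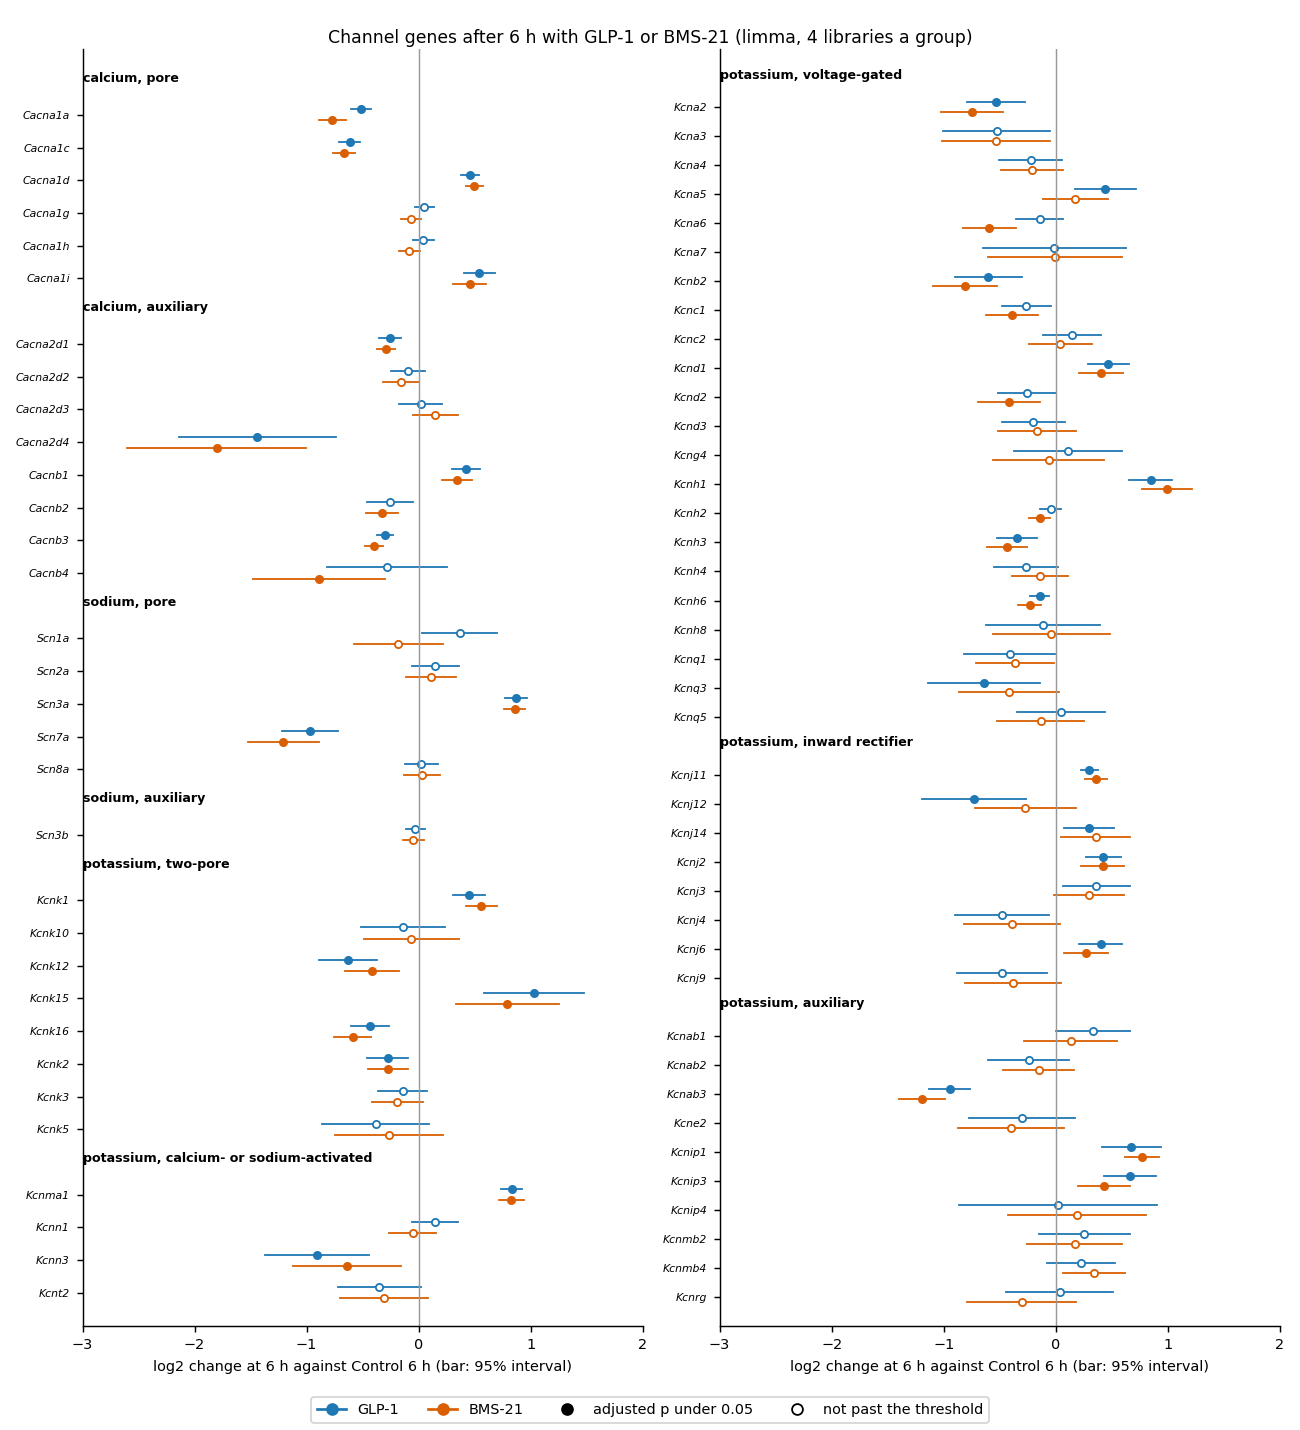
Fitted log2 change at 6 h against Control 6 h (horizontal axis, with 95% intervals) for channel genes tested, grouped by class and kind, in blue for GLP-1 and in orange for BMS-21, 4 libraries a group. Filled points passed the adjusted p threshold; Scn3a, Kcnma1 and Kcnh1 stand to the right of 0 for both agents, and Cacna2d4, Scn7a and Kcnab3 to the left.

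The calcium channel pores split at 6 h. The L-type pore Cacna1d and the T-type pore Cacna1i rose with both agents, whereas the L-type pore Cacna1c and the P/Q-type pore Cacna1a fell. Of the 6 pore genes tested at 6 h, 2 rose and 2 fell with each agent, and the T-type pores Cacna1g and Cacna1h did not pass (log2 change 0.05 and 0.04 with GLP-1, -0.07 and -0.08 with BMS-21). Cacna1d measured 144, 146, 148 and 151 RPM in the Control libraries at 6 h, 192, 194, 213 and 207 RPM with GLP-1 and 197, 203, 220 and 212 RPM with BMS-21. Every agent library was above every Control library, and the 12 libraries of 1 h lay at 188 to 217 RPM. The rise was 1.37-fold with GLP-1 (log2 change 0.46, SE 0.04, adjusted p = 7.19e-09) and 1.41-fold with BMS-21 (log2 change 0.50, SE 0.04, adjusted p = 1.08e-09). Cacna1c measured 82.1, 80.7, 87.3 and 85.3 RPM in Control at 6 h, 52.9, 52.6, 55.9 and 57.2 RPM with GLP-1 and 50.6, 53.7, 53.2 and 53.8 RPM with BMS-21. All 8 agent libraries were below the lowest Control library, and the 1 h libraries lay at 58.7 to 71.8 RPM. Cacna1c was 1.53-fold lower with GLP-1 (log2 change -0.61, SE 0.05, adjusted p = 1.18e-09) and 1.59-fold lower with BMS-21 (log2 change -0.66, SE 0.05, adjusted p = 1.82e-10). Cacna1a went from 182, 201, 194 and 201 RPM in Control at 6 h to 132, 147, 129 and 135 RPM with GLP-1 and 116, 120, 99.2 and 122 RPM with BMS-21. Its agent libraries were again all below Control, with 164 to 190 RPM at 1 h, and it was 1.43-fold lower with GLP-1 and 1.71-fold lower with BMS-21 (adjusted p = 8.74e-09 and 7.95e-09). Cacna1i, at 10.5 to 14.8 RPM at 1 h, measured 17.9, 18.0, 17.2 and 16.5 RPM in Control at 6 h, 26.6, 24.8, 24.7 and 25.2 RPM with GLP-1 and 23.5, 24.9, 24.6 and 22.6 RPM with BMS-21. The agent libraries were all above Control, 1.46-fold and 1.37-fold on fit. The R-type pore Cacna1e (0.176 to 0.728 RPM over the 12 libraries of 6 h) and the skeletal-muscle pore Cacna1s (0.152 to 1.06 RPM) were below the limit for testing at 6 h.

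**Figure D2:**
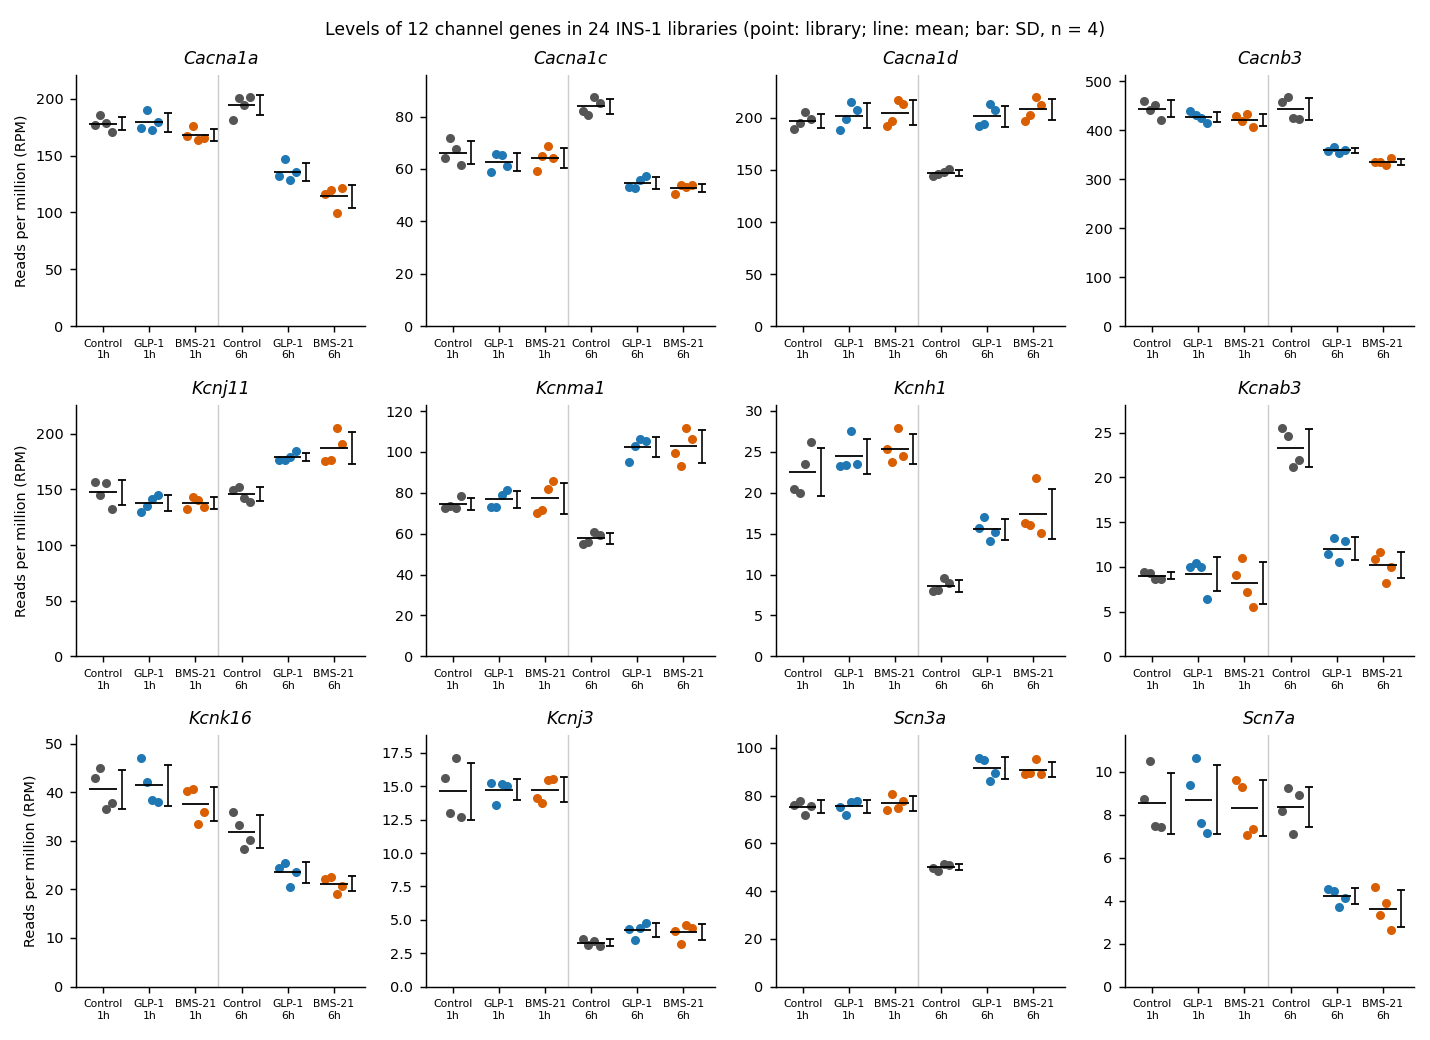
RPM (vertical axis, from 0) of 12 channel genes in the 24 libraries, by group (horizontal axis), with each library as a point, the group mean as a line and the SD as a bar (n = 4). Cacna1d, Kcnma1 and Scn3a are lower in Control at 6 h than at 1 h and stand apart from Control with both agents at 6 h, Kcnab3 is higher in Control at 6 h than at 1 h, and Kcnj3 is low in all groups at 6 h.

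Among the calcium channel auxiliary subunits, Cacnb1 rose with both agents while Cacna2d1, Cacna2d4 and Cacnb3 fell. Beta subunits (Cacnb) carry the pore to the membrane, and alpha2delta subunits (Cacna2d) raise its surface density. With GLP-1, 1 of the 8 rose and 3 fell, and with BMS-21 1 rose and 5 fell, with Cacnb2 and Cacnb4 besides. Cacnb3 measured 457, 467, 425 and 423 RPM in Control at 6 h, 357, 366, 353 and 360 RPM with GLP-1 and 336, 335, 329 and 344 RPM with BMS-21. No agent library reached a Control library, and the 1 h libraries lay at 406 to 461 RPM. It was 1.23-fold lower with GLP-1 (adjusted p = 1.34e-06) and 1.32-fold lower with BMS-21 (adjusted p = 2.55e-08). Cacnb1 measured 27.8, 32.4, 28.1 and 27.4 RPM in Control, 37.9, 38.5, 39.1 and 39.3 RPM with GLP-1 and 35.3, 38.1, 35.3 and 38.3 RPM with BMS-21 at 6 h, all agent libraries above Control (1.34-fold and 1.27-fold). Its 1 h libraries lay at 33.1 to 41.5 RPM. Cacna2d1 measured 181, 184, 204 and 202 RPM in Control, 153, 152, 169 and 171 RPM with GLP-1 and 158, 157, 157 and 157 RPM with BMS-21 at 6 h. All agent libraries were below Control (1.19-fold and 1.22-fold lower), and the 1 h libraries were higher, at 244 to 278 RPM. Cacnb2, a beta subunit of L-type channels, measured 41.7, 40.4, 44.4 and 44.6 RPM in Control at 6 h, 30.1, 32.0, 43.8 and 38.2 RPM with GLP-1 and 30.3, 31.8, 38.4 and 36.1 RPM with BMS-21, and 44.5 to 57.7 RPM at 1 h. The GLP-1 libraries of replicates 1 and 2 were low and that of replicate 3 overlapped Control, so the fall passed with BMS-21 (log2 change -0.33, SE 0.07, adjusted p = 0.000649) but not with GLP-1 (log2 change -0.26, adjusted p = 0.0562). Blocking on the replicate number, the GLP-1 value passed as well (adjusted p = 4.49e-05). Cacna2d4 and Cacnb4 were near the floor of detection. Cacna2d4 measured 2.21, 2.00, 0.808 and 1.88 RPM in Control, 0.331, 1.00, 0.476 and 0.528 RPM with GLP-1 and 0.415, 0.988, 0.249 and 0.239 RPM with BMS-21 at 6 h, and 0.795 to 2.81 RPM at 1 h. Control replicate 3 was low and overlapped both agents, and the fitted falls were -1.44 (SE 0.33) and -1.80 (SE 0.38) on the log2 scale (adjusted p = 0.00226 and 0.00104). Cacnb4 measured 0.915, 1.41, 1.78 and 1.47 RPM in Control, 0.745, 1.34, 1.11 and 1.32 RPM with GLP-1 and 0.581, 0.836, 0.998 and 0.478 RPM with BMS-21, and 0.731 to 1.64 RPM at 1 h. Its groups overlapped, and its call with BMS-21 (log2 change -0.89, adjusted p = 0.0189) was lost without Control 6 h replicate 3, Control 6 h replicate 4 or BMS-21 6 h replicate 4 (adjusted p = 0.0524 to 0.0717). Cacna2d2 and Cacna2d3 did not pass at 6 h with either agent (log2 changes -0.09 and 0.02 with GLP-1, -0.16 and 0.15 with BMS-21).

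Most voltage-gated potassium channel genes that moved at 6 h fell. Of the 26 tested, 3 rose and 7 fell with GLP-1, and 2 rose and 11 fell with BMS-21. Kcnh1, a pore of the ether-a-go-go family, was the largest rise of this kind with both agents. It measured 7.93, 8.06, 9.54 and 8.93 RPM in Control at 6 h, 15.7, 17.1, 14.1 and 15.1 RPM with GLP-1 and 16.3, 16.0, 21.9 and 15.1 RPM with BMS-21. Each agent library exceeded each Control library, and the libraries of 1 h lay at 19.9 to 28.0 RPM, above all agent libraries of 6 h except BMS-21 replicate 3. The rise was 1.80-fold with GLP-1 (log2 change 0.85, SE 0.09, adjusted p = 3.62e-07) and 1.99-fold with BMS-21 (log2 change 0.99, SE 0.11, adjusted p = 1.80e-07). Kcnd1, an A-type pore, rose with both (1.39-fold and 1.32-fold, from 9.76 to 11.9 RPM to 14.4 to 16.7 and 13.3 to 16.7 RPM). Kcna5, a Shaker-type pore, passed with GLP-1 (4.07 to 5.19 to 5.63 to 7.78 RPM, adjusted p = 0.012) and had a log2 change of 0.18 with BMS-21 that did not pass. Kcnb2, a delayed rectifier pore, measured 8.70, 6.90, 8.73 and 11.1 RPM in Control, 4.64, 5.52, 5.87 and 7.13 RPM with GLP-1 and 5.47, 5.39, 4.16 and 4.86 RPM with BMS-21, and 7.39 to 9.70 RPM at 1 h. GLP-1 replicate 4 overlapped the lowest Control library, no BMS-21 library did, and the falls were 1.52-fold (adjusted p = 0.00278) and 1.76-fold (adjusted p = 6.72e-05). Kcna2, a Shaker-type pore, measured 5.80, 6.48, 7.03 and 7.45 RPM in Control, 4.14, 4.52, 4.36 and 5.28 RPM with GLP-1 and 4.31, 3.34, 4.57 and 3.67 RPM with BMS-21 at 6 h, and 5.36 to 7.75 RPM at 1 h. Both agents were below Control without overlap (1.45-fold and 1.68-fold lower).

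Of Kcnq1, Kcnq3 and the ERG pores Kcnh2 and Kcnh6, only Kcnh6 was called with both agents at 6 h. Kcnq3 measured 1.68, 1.83, 1.54 and 1.56 RPM in Control, 0.911, 1.42, 1.19 and 0.704 RPM with GLP-1 and 1.08, 1.44, 1.33 and 1.04 RPM with BMS-21, and 1.03 to 2.78 RPM at 1 h. It passed with GLP-1 alone (log2 change -0.64, adjusted p = 0.0452), and lost that call without any 1 of the 4 Control libraries, GLP-1 replicate 1 or GLP-1 replicate 4 (adjusted p = 0.0628 to 0.143). Kcnq1, a pore found in islets, measured 4.88, 4.07, 4.53 and 3.28 RPM in Control, 4.06, 3.77, 1.98 and 2.99 RPM with GLP-1 and 2.74, 4.25, 2.91 and 3.11 RPM with BMS-21, and 3.41 to 5.14 RPM at 1 h. Its groups overlapped, and neither agent's value passed (log2 change -0.41 and -0.36), though with the replicate block the GLP-1 value did (adjusted p = 0.0315). Kcnh2, the ERG pore that carries a repolarising current, measured 97.3, 97.2, 91.4 and 86.3 RPM in Control at 6 h, 90.8, 88.0, 87.4 and 93.0 RPM with GLP-1 and 82.5, 83.6, 85.1 and 85.0 RPM with BMS-21. The GLP-1 libraries lay within the Control range and the BMS-21 libraries just under it, whereas all groups at 1 h lay at 119 to 137 RPM. With BMS-21 the log2 change was -0.14 (adjusted p = 0.0178), a call lost without Control 6 h replicate 1 or 2 (adjusted p = 0.0682 to 0.0717), and with GLP-1 it was -0.05 (adjusted p = 0.483). Kcnh6, a further ERG pore, measured 92.0, 89.5, 90.8 and 91.5 RPM in Control at 6 h, 83.6, 76.9, 86.3 and 81.8 RPM with GLP-1 and 73.2, 76.0, 74.7 and 86.0 RPM with BMS-21. Both agents were lower without overlap (1.11-fold and 1.18-fold), and the GLP-1 call was lost without GLP-1 6 h replicate 2 (adjusted p = 0.0526). Kcnh3, of the ELK family, fell with both (1.27-fold and 1.35-fold). With BMS-21, Kcna6 (-0.59), Kcnc1 (-0.39) and Kcnd2 (-0.42) also passed as lower on the log2 scale. With GLP-1 their log2 changes were -0.14, -0.26 and -0.26, none past the threshold, and Kcnc1 passed with the replicate block (adjusted p = 0.044). The Kcnd2 call was lost without Control 6 h replicate 1, Control 6 h replicate 4 or BMS-21 6 h replicate 4 (adjusted p = 0.0557 to 0.0674). The voltage-gated genes Kcna3, Kcna4, Kcna7, Kcnc2, Kcnd3, Kcng4, Kcnh4, Kcnh8 and Kcnq5 passed with neither agent at 6 h, with log2 changes from -0.53 (Kcna3) to 0.15 (Kcnc2) with GLP-1 and from -0.53 (Kcna3) to 0.04 (Kcnc2) with BMS-21. Kcnh5 (0.0837 to 0.970 RPM) and Kcnh7 (0.176 to 1.06 RPM) were not tested at 6 h.

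Among the inward rectifiers, Kcnj11, Kcnj2 and Kcnj6 rose with both agents at 6 h. Of the 8 tested, 4 rose, 1 fell and 3 did not pass with GLP-1, and 3 rose and 5 did not pass with BMS-21. Kcnj11, the pore of the ATP-sensitive channel, measured 149, 152, 142 and 139 RPM in Control at 6 h, 177, 176, 179 and 184 RPM with GLP-1 and 176, 177, 205 and 190 RPM with BMS-21. Every agent library was above the highest Control library, and the libraries of 1 h lay at 129 to 156 RPM. The rise was 1.23-fold with GLP-1 (log2 change 0.30, SE 0.04, adjusted p = 2.26e-06) and 1.28-fold with BMS-21 (log2 change 0.36, SE 0.05, adjusted p = 4.11e-06). Abcc8, its partner in the channel, measured 567 to 615 RPM in Control, 637 to 674 RPM with GLP-1 and 664 to 714 RPM with BMS-21, also without overlap (log2 change 0.16 and 0.20, adjusted p = 0.00109 and 0.000146). In Control at 1 h Abcc8 was at 711 to 789 RPM, and it fell in Control from 1 h to 6 h (log2 change -0.35, adjusted p = 7.86e-08). Kcnj2, a strong rectifier that holds the resting potential, rose 1.34-fold and 1.34-fold, from 14.9 to 18.0 RPM to 21.1 to 24.1 and 19.2 to 26.4 RPM. Kcnj6, a G-protein-gated subunit, rose 1.32-fold and 1.20-fold, and its BMS-21 call was lost without BMS-21 6 h replicate 4 or Control 6 h replicate 1, 2 or 3 (adjusted p = 0.0524 to 0.153). Kcnj14 rose with GLP-1 (log2 change 0.30, adjusted p = 0.0369) with overlapping libraries (10.8 to 15.2 RPM against 14.2 to 18.7 RPM). That call was lost without GLP-1 6 h replicate 3 or 4 or Control 6 h replicate 1 or 2 (adjusted p = 0.0817 to 0.142), and with BMS-21 the change of 0.36 passed only with the replicate block (adjusted p = 0.0722 without it and 0.000456 with it). Kcnj12 fell with GLP-1. It measured 2.29, 3.74, 1.94 and 2.54 RPM in Control at 6 h, 1.24, 1.92, 1.19 and 1.76 RPM with GLP-1 and 1.66, 2.13, 2.99 and 1.83 RPM with BMS-21, and 2.01 to 3.50 RPM at 1 h. The GLP-1 libraries were below Control (log2 change -0.73, adjusted p = 0.0154), a call lost without Control 6 h replicate 2 (adjusted p = 0.0804), and the BMS-21 libraries overlapped it. Kcnj3, Kcnj4 and Kcnj9 passed with neither agent (log2 changes 0.36, -0.48 and -0.48 with GLP-1, 0.30, -0.39 and -0.38 with BMS-21), and Kcnj3 passed with GLP-1 under the block (adjusted p = 0.0454).

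Two-pore channel genes moved both ways at 6 h, 2 of 8 higher and 3 lower with each agent. Kcnk16, whose channel is found mainly in pancreatic islets, measured 36.0, 33.3, 28.3 and 30.1 RPM in Control at 6 h, 24.4, 25.5, 20.5 and 23.6 RPM with GLP-1 and 22.1, 22.6, 19.1 and 20.7 RPM with BMS-21. Both agents were below Control in every library, with 33.5 to 47.1 RPM at 1 h, by 1.35-fold with GLP-1 (log2 change -0.43, SE 0.08, adjusted p = 0.000289) and 1.5-fold with BMS-21 (log2 change -0.59, SE 0.08, adjusted p = 3.35e-06). Kcnk1, of the TWIK type, rose from 23.2, 22.0, 21.3 and 22.2 RPM in Control to 31.1, 31.5, 26.5 and 32.1 RPM with GLP-1 and 36.1, 34.1, 30.9 and 30.2 RPM with BMS-21. No libraries overlapped, and the rise was 1.36-fold and 1.48-fold (adjusted p = 3.06e-05 and 1.01e-06). Kcnk15, at a low level, measured 1.22, 1.16, 0.808 and 1.56 RPM in Control, 2.57, 2.26, 2.77 and 2.2 RPM with GLP-1 and 1.91, 2.05, 2.00 and 2.31 RPM with BMS-21, and 0.864 to 2.02 RPM at 1 h. The agent libraries lay above Control, and the fitted rise was 2.04-fold (log2 SE 0.21) with GLP-1 and 1.73-fold (log2 SE 0.22) with BMS-21. Kcnk12 fell with both, from 11.4 to 14.2 RPM to 6.46 to 10.7 RPM with GLP-1 (1.54-fold lower) and 8.21 to 12.5 RPM with BMS-21 (1.34-fold lower, with overlap). Within replicates 3 and 4 alone the BMS-21 change of Kcnk12 was -0.17 (adjusted p = 0.353), against -0.66 within replicates 1 and 2. Kcnk2, a mechanically gated TREK channel, fell 1.21-fold with GLP-1 and 1.21-fold with BMS-21. The GLP-1 call was lost without GLP-1 6 h replicate 2 or Control 6 h replicate 1 or 3 (adjusted p = 0.0536 to 0.0849), and the BMS-21 call without BMS-21 6 h replicate 1 or 2 or Control 6 h replicate 1 or 3 (adjusted p = 0.0502 to 0.069). Kcnk3, Kcnk5 and Kcnk10 did not pass (log2 changes -0.14, -0.38 and -0.14 with GLP-1, -0.19, -0.26 and -0.06 with BMS-21).

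Kcnma1, which encodes the large-conductance (BK) channel opened by calcium and voltage, rose with both agents at 6 h. It measured 54.9, 56.0, 60.6 and 59.3 RPM in Control, 95.2, 103, 106 and 105 RPM with GLP-1 and 99.7, 93.0, 112 and 106 RPM with BMS-21. All agent libraries were far above Control, and also above the 70.0 to 85.7 RPM of the 1 h libraries. The rise was 1.78-fold with GLP-1 (log2 change 0.83, SE 0.05, adjusted p = 1.38e-11) and 1.78-fold with BMS-21 (log2 change 0.83, SE 0.05, adjusted p = 5.74e-11). Kcnn3, a small-conductance calcium-activated channel at low level, measured 1.98, 2.74, 2.99 and 1.80 RPM in Control, 1.08, 1.09, 1.66 and 1.06 RPM with GLP-1 and 1.82, 1.14, 2.00 and 1.12 RPM with BMS-21, and 1.55 to 3.09 RPM at 1 h. GLP-1 libraries were below Control (log2 change -0.91, adjusted p = 0.00347). BMS-21 libraries overlapped Control, and that call (log2 change -0.64, adjusted p = 0.0383) was lost without BMS-21 6 h replicate 2 or 4 or Control 6 h replicate 2 or 3 (adjusted p = 0.107 to 0.129). Kcnn1 and the sodium-activated channel gene Kcnt2 did not pass (log2 change 0.15 and -0.35 with GLP-1, -0.05 and -0.31 with BMS-21).

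Of the 10 auxiliary potassium channel genes, Kcnip1 and Kcnip3 rose and Kcnab3 fell with each agent at 6 h. Kcnip proteins are calcium sensors that bind A-type channels, and Kcnip3 is also described as a transcriptional repressor. Kcnab3 encodes a beta subunit of Shaker-type channels. Kcnab3 measured 25.6, 24.6, 21.1 and 22.0 RPM in Control at 6 h, 11.4, 13.2, 10.5 and 12.9 RPM with GLP-1 and 10.9, 11.7, 8.23 and 9.96 RPM with BMS-21. The Control libraries of 6 h stood apart from all others, since the 12 libraries of 1 h lay at 5.54 to 11.0 RPM. Kcnab3 was 1.93-fold lower with GLP-1 (log2 change -0.95, SE 0.09, adjusted p = 3.81e-08) and 2.29-fold lower with BMS-21 (log2 change -1.19, SE 0.10, adjusted p = 6.34e-09). Kcnip1 measured 40.4, 45.3, 37.6 and 38.8 RPM in Control, 69.5, 79.2, 57.1 and 54.9 RPM with GLP-1 and 74.2, 76.0, 61.0 and 65.3 RPM with BMS-21 at 6 h, and 48.6 to 61.0 RPM at 1 h. Every agent library was above Control, with replicates 1 and 2 higher than 3 and 4 in each of the 3 groups of 6 h, and the rise was 1.6-fold and 1.70-fold (adjusted p = 0.00187 and 1.43e-07). Kcnip3 measured 5.72, 5.65, 7.03 and 5.49 RPM in Control, 10.3, 9.37, 8.64 and 9.51 RPM with GLP-1 and 8.21, 8.51, 7.48 and 8.05 RPM with BMS-21, and 7.50 to 10.1 RPM at 1 h. The agents did not overlap Control (1.58-fold and 1.35-fold, adjusted p = 7.49e-05 and 0.0044). Kcnab1, Kcnab2, Kcne2, Kcnip4, Kcnmb2, Kcnmb4 and Kcnrg passed with neither agent, with log2 changes from -0.30 (Kcne2) to 0.33 (Kcnab1) with GLP-1 and from -0.40 (Kcne2) to 0.34 (Kcnmb4) with BMS-21. Kcnmb4, a beta subunit of the BK channel, passed with BMS-21 under the replicate block (adjusted p = 0.0222, against 0.056 without it).

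Among the sodium channel genes, the pore Scn3a rose and Scn7a fell with both agents at 6 h. Scn3a measured 49.5, 48.5, 51.5 and 50.9 RPM in Control, 95.8, 94.9, 86.0 and 89.4 RPM with GLP-1 and 88.9, 89.6, 95.4 and 89.1 RPM with BMS-21. All agent libraries exceeded Control, and also the 71.9 to 80.6 RPM of the 1 h libraries. The rise was 1.83-fold with GLP-1 (log2 change 0.87, SE 0.05, adjusted p = 7.00e-12) and 1.81-fold with BMS-21 (log2 change 0.86, SE 0.05, adjusted p = 2.23e-12). Scn7a, whose product is a sodium sensor rather than a voltage-gated pore, measured 8.16, 9.23, 7.11 and 8.93 RPM in Control, 4.55, 4.44, 3.73 and 4.14 RPM with GLP-1 and 4.65, 3.34, 3.91 and 2.63 RPM with BMS-21. It was lower in every agent library, with 7.07 to 10.6 RPM at 1 h, by 1.96-fold with GLP-1 (log2 change -0.97, SE 0.12, adjusted p = 2.35e-06) and 2.31-fold with BMS-21 (log2 change -1.21, SE 0.15, adjusted p = 1.67e-06). Scn8a, a pore of excitable cells, did not pass. It measured 25.3, 22.8, 23.2 and 22.1 RPM in Control, 23.3, 24.0, 21.6 and 25.9 RPM with GLP-1 and 20.5, 26.4, 24.0 and 24.5 RPM with BMS-21 at 6 h, and 21.1 to 27.9 RPM at 1 h. The groups overlapped, and the 95% interval of its log2 change was -0.12 to 0.17 with GLP-1 and -0.13 to 0.19 with BMS-21. Scn3b (-0.11 to 0.06 and -0.14 to 0.05), Scn2a (-0.06 to 0.36 and -0.11 to 0.33) and Scn1a (0.03 to 0.70 and -0.58 to 0.21) did not pass either, with these 95% intervals in the same order.

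At 1 h the 4 calls fell on 3 genes. Kcnk1 rose with GLP-1, from 25.7, 24.5, 24.3 and 24.4 RPM in Control to 30.2, 32.0, 28.0 and 30.5 RPM, and measured 30.5, 28.2, 28.0 and 28.3 RPM with BMS-21. Neither agent overlapped Control, and the rise was 1.22-fold with GLP-1 (log2 change 0.29, SE 0.06, adjusted p = 0.00296) and 1.16-fold with BMS-21 (log2 change 0.22, SE 0.06, adjusted p = 0.0356). The GLP-1 call held without any 1 library, and the BMS-21 call was lost without BMS-21 1 h replicate 1, 2 or 4 or Control 1 h replicate 2, 3 or 4 (adjusted p = 0.0567 to 0.155). Cacna2d2 measured 16.9, 16.2, 15.4 and 16.9 RPM in Control, 19.4, 20.1, 18.6 and 19.3 RPM with GLP-1 and 18.4, 19.7, 17.1 and 17.3 RPM with BMS-21 at 1 h. GLP-1 libraries were all above Control (log2 change 0.25, SE 0.07, adjusted p = 0.039), a call lost without GLP-1 1 h replicate 1, 2 or 4 or Control 1 h replicate 1, 2 or 3 (adjusted p = 0.0564 to 0.125). At 6 h its levels were 18.9, 19.5, 17.1 and 19.2 RPM in Control, 18.7, 17.5, 16.8 and 16.7 RPM with GLP-1 and 15.0, 16.9, 17.2 and 17.6 RPM with BMS-21. Kcnh6 measured 86.3, 80.5, 87.5 and 77.0 RPM in Control, 73.4, 75.6, 77.4 and 71.3 RPM with GLP-1 and 74.1, 72.9, 73.7 and 67.1 RPM with BMS-21 at 1 h. It was lower with BMS-21 (log2 change -0.20, SE 0.05, adjusted p = 0.0141), a call lost without BMS-21 1 h replicate 4 or Control 1 h replicate 1 or 3 (adjusted p = 0.0657 to 0.0807), and not past the threshold with GLP-1 (-0.15, adjusted p = 0.0635). Scaling by library totals in place of the authors' size factors gave 1 gene higher and 2 lower with GLP-1, and 0 higher and 2 lower with BMS-21. Blocking on the replicate number, 5 genes passed with GLP-1, Kcna4 (-0.39), Kcnh4 (-0.39) and Kcnh6 (-0.15) being added as lower. With BMS-21 the block gave 9, adding Cacna2d3 (0.25) as higher and Cacna1a (-0.08), Cacna1h (-0.11), Cacnb3 (-0.07), Kcna4 (-0.34), Kcnj11 (-0.09) and Kcnk12 (-0.16) as lower. Those log2 changes had overlapping libraries, and each had an adjusted p above 0.05 without the block. The share of all genes passing with the block is not given here. Leaving out single libraries moved the count between 1 and 3 with GLP-1 and between 0 and 2 with BMS-21. The lowest count with GLP-1 came without GLP-1 1 h replicate 2 or Control 1 h replicate 1 or 3. With BMS-21 the count was 0 without BMS-21 1 h replicate 4 or Control 1 h replicate 3, and 1 without BMS-21 1 h replicate 1 or 2 or Control 1 h replicate 1 or 4.

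Between 1 h and 6 h the Control cells themselves changed. Of the 79 channel genes tested (edgeR quasi-likelihood test on the recovered reads), 10 were higher and 30 lower at 6 h, which is 50.6%, beside 54.0% of all genes (26.8% higher and 27.2% lower). Calcium channel genes counted 6 higher and 5 lower of 15, potassium channel genes 4 higher and 22 lower of 57, and sodium channel genes 0 higher and 3 lower of 7, and the differences between the classes were not tested. Of the 76 genes that met the limit at both times, 10 were higher and 29 lower. With the replicate block, 10 of the 79 genes were higher and 32 lower, with no share of all genes given for that fit. The only gene of the 79 to more than double was Kcnab3, at 9.47, 9.29, 8.69 and 8.64 RPM at 1 h and 25.6, 24.6, 21.1 and 22.0 RPM at 6 h (2.57-fold, log2 change 1.36, SE 0.09, adjusted p = 1.02e-11). The largest fall was that of Kcnj3, a subunit of G-protein-gated rectifiers. It measured 15.6, 13.0, 17.1 and 12.7 RPM at 1 h and 3.59, 3.08, 3.40 and 3.03 RPM at 6 h. All 6 h libraries were far below, 4.47-fold on fit (log2 change -2.16, SE 0.13, adjusted p = 2.64e-12). Kcnt2, Kcnk10, Kcnk12 and Kcnh1 followed at 3.14-, 3.05-, 2.63- and 2.62-fold lower. Kcnk12, for one, had 35.4, 34.9, 34.7 and 30.3 RPM at 1 h and 12.7, 14.2, 11.4 and 13.4 RPM at 6 h. Kcnc2 (-1.06), Kcnd2 (-1.0), Kcna4 (-0.91), Kcnj2 (-0.81) and Kcna5 (-0.77) fell by more than 0.7 on the log2 scale. Kcnh5 also passed as lower (-1.36), but it met the limit only through its 1 h level, so its fall is a description. Smaller falls that passed were those of Scn3a (-0.59), Kcnip3 (-0.52), Kcnq5 (-0.49), Kcnh2 (-0.48), Scn2a (-0.47), Cacnb1 (-0.47), Kcnip1 (-0.45), Cacna1d (-0.43), Cacna2d1 (-0.43), Cacna1g (-0.40) and Kcnh3 (-0.40), and of Kcnma1, Cacnb2, Kcnk16, Kcnc1, Kcnj6, Scn3b, Kcnk2 and Kcnk1 (from -0.37 to -0.16). Besides Kcnab3, the genes higher at 6 h included Cacnb4 (0.76), Cacna1i (0.53), Kcnj14 (0.41), Cacna1c (0.33), Cacna1h (0.20), Cacna2d2 (0.18), Kcnh6 (0.13) and Cacna1a (0.12). Kcnj11 (-0.12 to 0.08) and Cacnb3 (-0.09 to 0.07) did not pass, with these 95% intervals. Calls lost on leaving out single libraries were those of Cacna2d2 (without Control 1 h replicate 2 or 3 or Control 6 h replicate 1, 2 or 4, adjusted p = 0.0719 to 0.0963), Cacnb4 (Control 1 h replicate 1 or 3 or Control 6 h replicate 3, 0.0532 to 0.0837) and Kcnh6 (Control 1 h replicate 2 or 4, 0.0598 to 0.0767). The same held for Kcnk1 (without Control 1 h replicate 1, 3 or 4 or Control 6 h replicate 2, 3 or 4, 0.0517 to 0.115), Kcnk2 (Control 1 h replicate 3 or Control 6 h replicate 4, 0.0641 to 0.0723) and Kcnq5 (Control 1 h replicate 3 or Control 6 h replicate 2, 0.0654 to 0.0932).

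**Figure D3:**
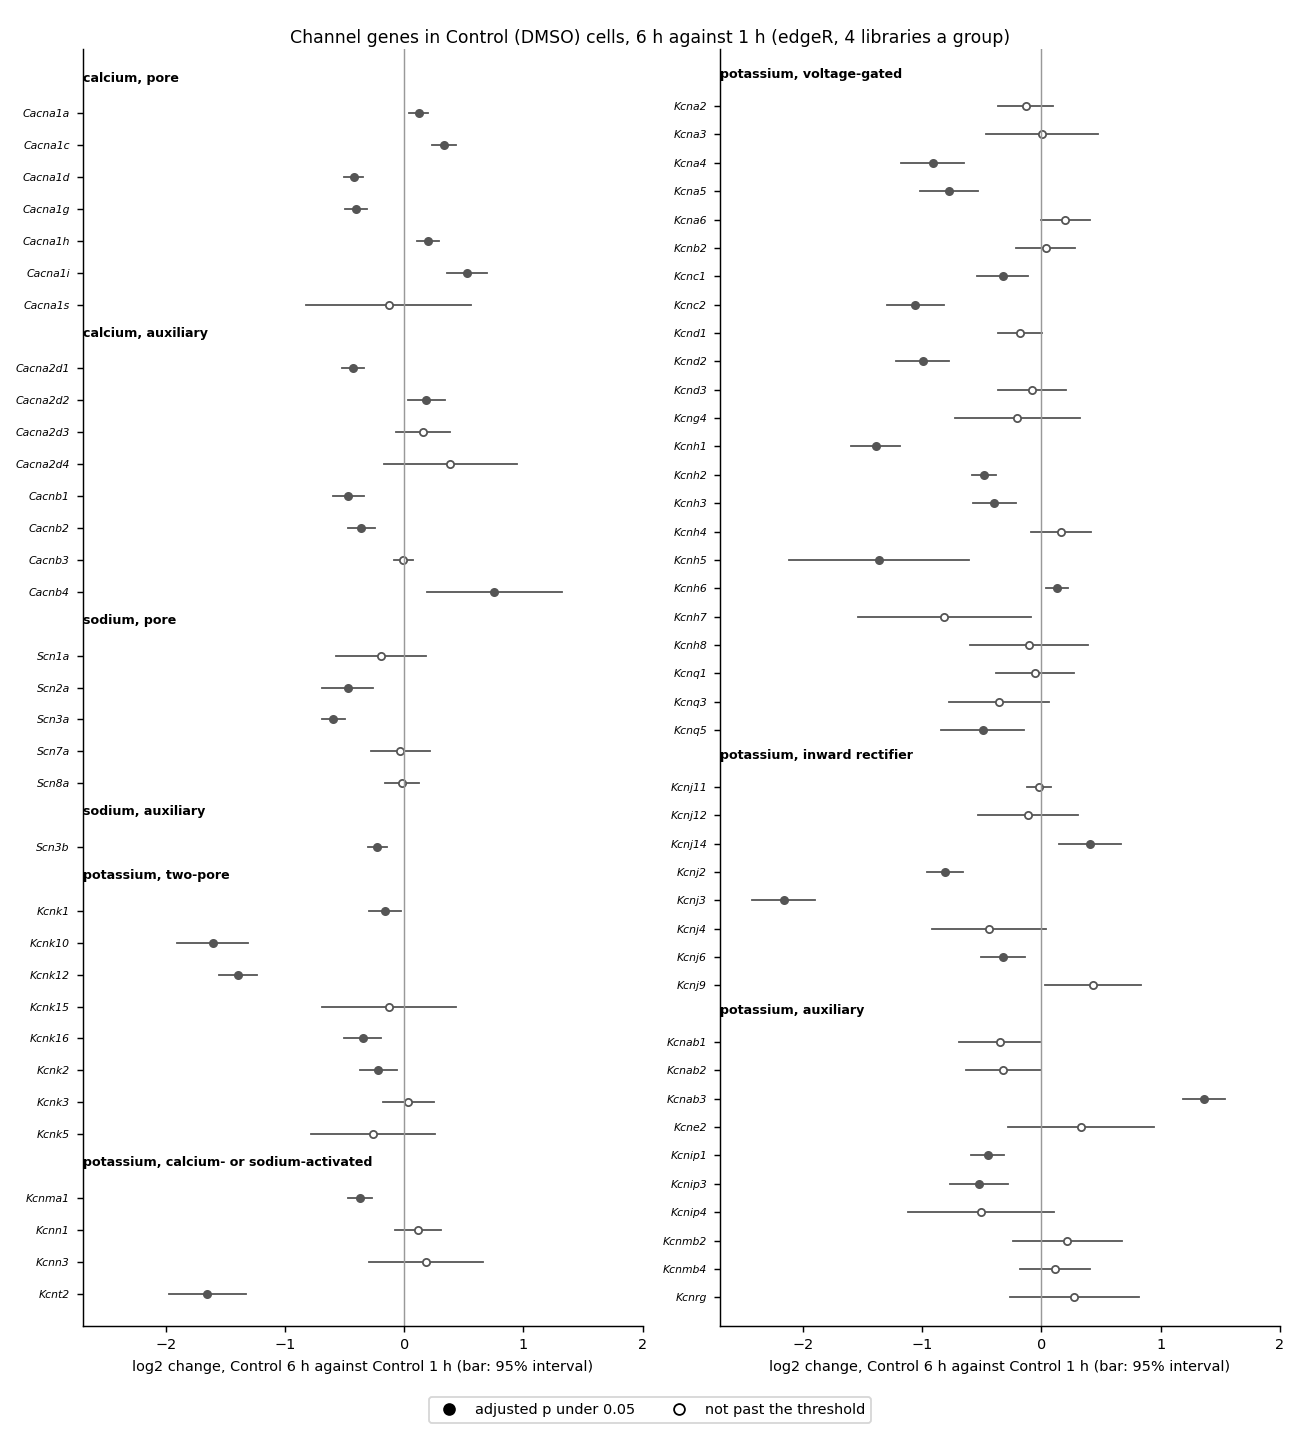
Fitted log2 change from 1 h to 6 h in Control cells (horizontal axis, with 95% intervals) for channel genes tested, by class and kind, 4 libraries a time. Filled points passed the threshold; Kcnj3, Kcnt2, Kcnk10, Kcnk12 and Kcnh1 lie far to the left and Kcnab3 to the right.

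Because Control values moved between 1 h and 6 h, some agent levels of 6 h are given here beside Control at both times. For Scn3a, the group means were 75.4 ± 2.54 RPM (SD, n = 4) in Control at 1 h, 50.1 ± 1.38 in Control at 6 h, 91.5 ± 4.65 with GLP-1 and 90.8 ± 3.13 with BMS-21 at 6 h. The agents were thus above Control at both times. For Kcnab3 the same means were 9.02 ± 0.419, 23.3 ± 2.12, 12.0 ± 1.27 and 10.2 ± 1.49 RPM, with the agents between the 2 Control means and nearer that of 1 h. Its GLP-1 libraries of 6 h (10.5 to 13.2 RPM) were all above those of Control at 1 h (8.64 to 9.47 RPM), and the BMS-21 libraries overlapped them. For Cacna1d the means were 197 ± 6.91, 147 ± 2.92, 202 ± 10.2 and 208 ± 9.86 RPM, with agent levels near that of Control at 1 h. For Cacna1c they were 66.3 ± 4.47, 83.8 ± 3.00, 54.6 ± 2.28 and 52.8 ± 1.51 RPM, with the agents below Control at both times. For Kcnh1 they were 22.5 ± 2.94, 8.62 ± 0.757, 15.5 ± 1.24 and 17.3 ± 3.06 RPM, with the agents between the 2 Control levels. No group of an agent at 6 h was tested against Control at 1 h.

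The change of a response from 1 h to 6 h was tested as an interaction of agent and time. Of 81 channel genes, 12 changed upward and 16 downward with GLP-1 (34.6%, beside 18.0% of all genes, 8.96% upward and 9.06% downward), and 13 upward and 18 downward with BMS-21 (38.3%, beside 21.2%, 11.0% upward and 10.2% downward). With the replicate block, 13 changed upward and 17 downward with GLP-1, and 16 upward and 20 downward with BMS-21. The shares of all genes above are those without the block, and none is given with it. Scn3a had the smallest adjusted p for both, with a change of 0.87 (SE 0.06, adjusted p = 5.36e-11) with GLP-1 and 0.84 (SE 0.06, adjusted p = 1.57e-10) with BMS-21. Kcnma1 changed by 0.78 and 0.78, and Cacna1a by -0.53 and -0.68. Among the potassium channel genes, Kcnj11 (0.40 and 0.47), Kcnd1 (0.64 and 0.67) and Kcnj2 (0.46 and 0.55) changed upward with both. Kcnk16 (-0.47 and -0.48) and Kcnh3 (-0.43 and -0.55) changed downward. Kcnk1, which had already risen at 1 h, changed by 0.16 (adjusted p = 0.25) with GLP-1 and 0.35 (adjusted p = 0.00459) with BMS-21. Cacna2d2, higher with GLP-1 at 1 h, changed by -0.34 (adjusted p = 0.0123).

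GLP-1 and BMS-21 were also compared with each other, at doses that differ (100 nM and 1 µM), so a difference can be one of dose. At 1 h, 0 of 79 channel genes passed, beside 0.0% of all genes. Of these 79, 3 had an unadjusted p under 0.05, beside 432 of all 12672 genes, and 0 passed by edgeR or DESeq2. At 6 h, 0 of 76 passed, beside 0.0158% of all genes, with 0.00792% in each direction. Of these 76, 9 had an unadjusted p under 0.05, beside 800 of all 12629 genes. By edgeR and by DESeq2, 0 channel genes passed at 6 h, beside 0 and 16 of all genes. The 95% interval of the difference lay within 0.5 on the log2 scale, in either direction, for 57 of the 79 genes at 1 h and 50 of the 76 at 6 h, with a median half-width of 0.22 and 0.26. At 6 h the interval of GLP-1 minus BMS-21 was -0.11 to 0.11 for Kcnma1, -0.08 to 0.11 for Scn3a, -0.13 to 0.04 for Cacna1d, -0.05 to 0.15 for Cacna1c and -0.15 to 0.03 for Kcnj11. Blocking on the replicate number, 4 channel genes passed at 6 h, all higher with GLP-1, with no share of all genes beside them. They were Cacna1a (log2 difference 0.25, adjusted p = 1.09e-05), Kcna6 (0.45, 0.0122), Cacna1h (0.12, 0.027) and Cacnb3 (0.10, 0.0417). Cacna1a was at 132, 147, 129 and 135 RPM with GLP-1 and 116, 120, 99.2 and 122 RPM with BMS-21, without overlap and with the higher value under GLP-1 in each of the 4 replicate numbers. Kcna6 was at 9.28, 9.04, 11.1 and 10.3 RPM with GLP-1 and 6.64, 7.52, 6.40 and 8.61 RPM with BMS-21, also without overlap. The interval was wide for low genes, such as Cacnb4 (-0.01 to 1.22).

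**Figure D4:**
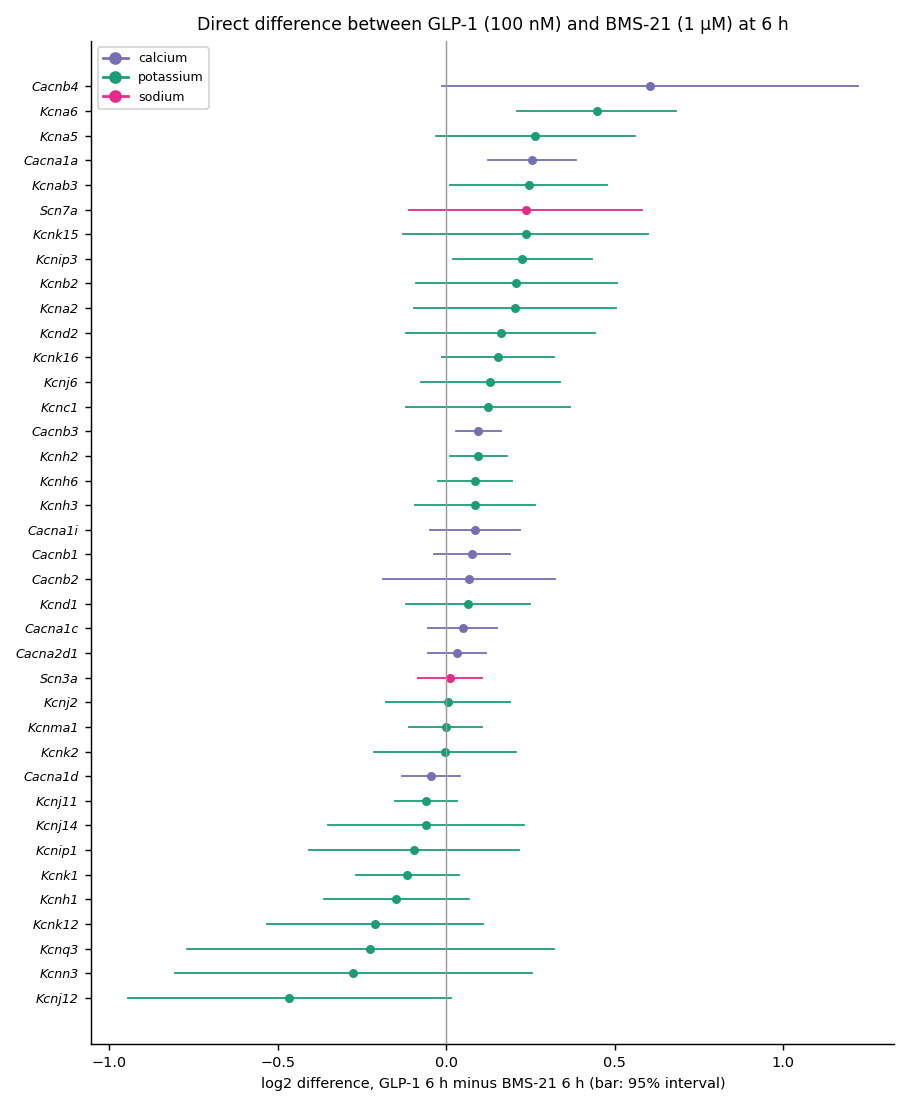
Log2 difference between GLP-1 and BMS-21 at 6 h (horizontal axis, GLP-1 minus BMS-21, with 95% intervals) for 38 of the 43 channel genes called with either agent at 6 h, ordered by size and coloured by class, 4 libraries a group; Cacna2d4 was not tested in this pair. Kcnma1 and Scn3a lie at 0 with narrow intervals, and Cacna1a and Kcna6 lie to the right.

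In the authors' deposited table of GLP-1 at 6 h, 80 of the 81 channel genes had an adjusted p. It was under 0.05 for 35, 34 of which were also called here. The share of all genes under 0.05 in the authors' deposited tables is not given here. Cacnb2 was called in the authors' deposited table alone, and Kcnj14 and Kcnq3 here alone. In the authors' deposited table of BMS-21 at 6 h, 73 of the 81 had an adjusted p. It was under 0.05 for 35, again with 34 called here. Kcnj14 was called in theirs alone, and Cacna2d4, Cacnb4, Kcnd2, Kcnj6 and Kcnn3 here alone. A gene without an adjusted p in theirs could only be called here. At 1 h, 81 channel genes had an adjusted p in the authors' deposited table of GLP-1 and 74 in that of BMS-21. It was under 0.05 for 1 gene in each, Kcnk1 with GLP-1 and Kcnh6 with BMS-21. Cacna2d2 with GLP-1 and Kcnk1 with BMS-21 were called here alone. In the authors' deposited table of GLP-1 and BMS-21 at 6 h, 18 of the 81 channel genes had an adjusted p, and it was under 0.05 for 1, Cacna1a.

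Other genes of excitability and calcium handling were counted from a list of 42, of which 39 matched a symbol. At 6 h, 10 of 33 tested rose and 7 fell with GLP-1 (51.5%, beside 31.7% of all genes), and 10 of 34 rose and 8 fell with BMS-21 (52.9%, beside 33.6%). Blocking on the replicate number gave 11 and 8 with GLP-1, where the sodium-calcium exchanger gene Slc8a1 (0.09, adjusted p = 0.0126 with the block and 0.0701 without) and Rem2 were added. With BMS-21 the block gave 10 and 7, where Itpr2, a calcium release channel gene, was lost (-0.94, adjusted p = 0.0521 with the block and 0.036 without). No share of all genes is given for the blocked fits. At 1 h, 2 of 33 rose and 0 fell with each agent (6.06%, beside 6.58% of all genes with GLP-1 and 5.91% with BMS-21). At 1 h Gem and Rem2 were the 2 that rose, both small GTPases that restrain voltage-gated calcium channels by binding their beta subunits. Gem went from 49.4 to 53.2 RPM in Control to 207 to 235 RPM with GLP-1 and 193 to 237 RPM with BMS-21. All agent libraries were far above Control (log2 change 2.10 and 2.05, adjusted p = 2.12e-22 and 1.12e-18). Rem2 changed by 0.26 (adjusted p = 0.00433) and 0.20 (adjusted p = 0.00886). At 6 h Gem was still higher (0.71 and 0.67), with 33.6 to 35.9 RPM in Control, 52.6 to 58.9 RPM with GLP-1 and 51.6 to 59.6 RPM with BMS-21. Rem2 was not higher at 6 h. It measured 40.5 to 49.8 RPM in Control, 32.8 to 41.8 RPM with GLP-1 and 27.4 to 36.0 RPM with BMS-21, against 64.3 to 68.8 RPM in Control at 1 h. It fell with BMS-21 (log2 change -0.40, adjusted p = 0.00136), and its change of -0.22 with GLP-1 passed with the replicate block (adjusted p = 0.000205) but not without it (adjusted p = 0.0528). From 1 h to 6 h its response changed by -0.48 with GLP-1 (adjusted p = 0.00168) and -0.59 with BMS-21 (adjusted p = 5.97e-05). The other genes of this list with the smallest adjusted p at 6 h were Itpr3, a calcium release channel of the endoplasmic reticulum (0.59 and 0.63), and Atp1b1, a subunit of the sodium pump (0.45 and 0.40). Both rose with each agent (adjusted p = 9.82e-10 and 2.42e-10 for Itpr3, 1.28e-10 and 5.09e-09 for Atp1b1).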

How the data were processed

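RNA of 24 INS-1 libraries was sequenced with an unstranded kit. Per the submitters' processing notes, reads were handled with TopHat2 2.0.12, Bowtie2 2.2.3.0, SAMtools 0.1.19.0, Subread, DESeq and DESeq2 1.6.3 on Rnor_5.0; the annotation version is not given in the sources used here. The authors deposited 6 tables, each of 2 groups, with normalised counts (a signal: reads divided by a size factor), log2 fold changes and adjusted p-values. Reads recovered from the size-factor steps were whole for 100% of values (tolerance 0.001), and their totals ranged from 10667350 to 13148970, which limits low genes by counting error.

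Agents were compared with limma 3.58.1 (trend, robust) on log2(normalised count + 1) for genes whose mean was 10 or more, so that changes of low genes are understated, with Benjamini-Hochberg adjustment over all genes. Control over time and the change of each response were tested with the quasi-likelihood test of edgeR 4.0.16 on recovered reads, with TMM factors, in R 4.3.3. RPM are recovered reads per 1000000 reads after TMM scaling over the 24 libraries. Genes are compared between groups and not with each other, as no lengths were used. Alternatives were other pseudocounts, filters and scalings, edgeR, DESeq2 1.42.0, a replicate block, replicates 1 and 2 or 3 and 4 alone, and each library left out. Libraries with the same replicate number in the labels deviated from their group means together in all 24 pairs (r = 0.119 to 0.406 over genes with a mean of at least 50, and 0.0738 to 0.242 at 10). The best correlation with another number was 0.0768 to 0.234 and 0.0426 to 0.127, and the same number was highest in 24 and 23 of 24 pairs, in some by a small margin. As every r at 50 was above 0.1, the numbers were taken as pairs in the replicate block, while the main fits did not use them. For the channel genes reported, blocked values are given where they change a call between groups of the same time. For Control over time and the change of each response, only the blocked counts are given. The correlations were taken only between groups of the same time, so whether a number pairs libraries of 1 h with those of 6 h was not tested. The share of all genes passing with the block is not given for any count. The fits were also run on simulated counts, with the same dispersion for every gene and no shared deviation of replicates. Those simulations cannot show how the calls of low genes or the replicate block behave in these data.

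The genes and lists were chosen with earlier results of these data known. The rule for values of every library took 13 preset genes that were tested and, per class, agent and time, up to 5 called genes with the largest rise and 5 with the largest fall, 34 in all, of which 31 are given. Single-gene results of some members are not reported here, and these members stay in all counts and medians. For the genes given, every library of 6 h is given, every library of 1 h where a call was made at 1 h, and otherwise the range over the 12 libraries of 1 h. Up to 3 genes per comparison of the excitability list are named by smallest adjusted p, and Abcc8, Slc8a1, Itpr2 and the 6 h values of Rem2 were added after their values were seen. Promoters came from RefSeq tables on GRCr8, used for sequence only.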

Additional observations from a re-analysis of the deposited data

Results flagged for a closer look

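In 10 of 186 groups of 4 libraries examined among the genes given library by library, a single library stood far from the other 3; chance gives about 1 in 20 such groups. They were Cacnb1 in Control 6 h replicate 2 (32.4 RPM), Kcna2 in GLP-1 1 h replicate 1 (6.91 RPM), Kcnab3 in GLP-1 1 h replicate 4 (6.41 RPM), Kcnh1 in GLP-1 1 h replicate 3 (27.6 RPM), Kcnh6 in BMS-21 1 h replicate 4 (67.1 RPM), Kcnip3 in Control 6 h replicate 3 (7.03 RPM), Kcnk1 in Control 1 h replicate 1 (25.7 RPM), Kcnk1 in BMS-21 1 h replicate 1 (30.5 RPM), Kcnn3 in GLP-1 6 h replicate 3 (1.66 RPM) and Scn3a in BMS-21 6 h replicate 3 (95.4 RPM).

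The response to GLP-1 differed between 1 h and 6 h by the interaction test in edgeR. On the log2 scale (response at 6 h minus response at 1 h) it changed upward for Cacna1d (0.42), Cacna1i (0.42), Cacnb1 (0.49), Kcnh1 (0.73), Kcnip1 (0.67), Kcnip3 (0.68), Kcnj11 (0.40), Kcnma1 (0.78) and Scn3a (0.87). It changed downward for Cacna1a (-0.53), Cacna1c (-0.54), Cacna2d1 (-0.27), Cacna2d2 (-0.34), Cacna2d4 (-1.61), Cacnb3 (-0.25), Cacnb4 (-1.09), Kcnab3 (-0.98), Kcnb2 (-0.68), Kcnk16 (-0.47), Kcnn3 (-1.04) and Scn7a (-1.02). Of these, the calls of Cacna2d4 (without GLP-1 1 h replicate 1, adjusted p = 0.0643), Cacnb4 (without any of 9 libraries, adjusted p = 0.0509 to 0.086) and Kcnn3 (without any of 9, adjusted p = 0.0517 to 0.0703) were lost when 1 library was left out.

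The response to BMS-21, measured against the same Control libraries, changed upward for Cacna1d (0.45), Cacna1i (0.31), Cacnb1 (0.47), Kcnh1 (0.84), Kcnip1 (0.73), Kcnip3 (0.49), Kcnj11 (0.47), Kcnk1 (0.35), Kcnma1 (0.78) and Scn3a (0.84). It changed downward for Cacna1a (-0.68), Cacna1c (-0.62), Cacna2d1 (-0.30), Cacna2d2 (-0.30), Cacna2d4 (-2.27), Cacnb3 (-0.32), Cacnb4 (-1.20), Kcna2 (-0.63), Kcnab3 (-1.04), Kcnb2 (-0.77), Kcnk16 (-0.48) and Scn7a (-1.16). Leaving out 1 library ended the calls of Cacna1i (13 of the 16 libraries, adjusted p = 0.0526 to 0.112), Cacna2d2 (9 libraries, 0.0514 to 0.0894), Cacnb4 (6 libraries, 0.0509 to 0.0751) and Kcnip3 (9 libraries, 0.0507 to 0.0743).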

How the results depend on the processing

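At 6 h the number of channel genes called stayed within 1.5 times for GLP-1 (30 to 40, against 36) and BMS-21 (33 to 42, against 39) under every alternative tried, and leaving out single libraries gave 33 to 37 and 36 to 40. Of 3091 values of called genes under an alternative, 2843 kept their direction and their side of the threshold, 248 no longer passed and 0 changed sign while called. The counts at 1 h, of 2 genes each, were less stable. With GLP-1 at 1 h, the count was 1 (1 higher) without a filter on low genes and 1 (1 higher) with DESeq2, 1 higher and 2 lower with library totals, 5 (3 lower) with the replicate block, 1 higher and 1 lower within replicates 1 and 2, and 0 (0 higher) within replicates 3 and 4. With BMS-21 at 1 h, it was 1 (0 higher) without the filter and 1 (0 higher) with DESeq2, 0 higher and 2 lower with library totals, 9 (2 higher, 7 lower) with the replicate block, 2 lower of 3 within replicates 1 and 2, and 1 (0 higher) within replicates 3 and 4. Leaving out single libraries at 1 h gave 1 to 3 with GLP-1 (1 to 2 higher, 0 to 1 lower) and 0 to 2 with BMS-21 (0 to 1 higher, 0 to 2 lower). Between the agents at 6 h, the replicate block gave 4 (4 higher with GLP-1) and replicates 1 and 2 alone 1 (1 higher). The change of the GLP-1 response gave 18 (9 lower) within replicates 3 and 4 alone, against 28. The cause was not tested, except that fits within 2 replicates hold fewer libraries. Beyond the counts named above, the block moved no count over all channel genes (called, higher or lower) by over 1.5 times. Counts by class or kind and those of the excitability list are not covered by that statement. Counting error is largest for low genes such as Cacna2d4 and Cacnb4, and no alternative varied the depth.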
